A study of Mus musculus with 8 samples.

Results

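The histone genes of the mouse were examined in RNA from 2-cell embryos. They were taken from the deposited table of expected counts as all rows whose symbol began with Hist1h to Hist4h, H1f, H2a, H2b, H3 or H4, except those whose symbol ends in the pseudogene mark -ps. The rule found 106 rows of 55487. Of these, 105 name a histone gene and 1, H3f3aos, is a transcript antisense to H3f3a that was set apart. The 105 genes were 10 linker histone genes (H1), 63 replication-dependent core histone genes (20 H2A, 18 H2B, 12 H3 and 13 H4) and 32 genes of core histone variants (26 H2A, 2 H2B and 4 H3). On the GRCm38 build 57 of the 105 lie on chromosome 13, 20 on chromosome X, 11 on chromosome 3 and the others on 7 more chromosomes.

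Embryos called knockdown-labelled here received the RNA-cutting nuclease CasRX together with a guide RNA against Polq, the gene of DNA polymerase theta, and their genotype is given as polq knockdown. The control embryos received CasRX with no guide named, and their genotype is given as WT. Both groups were injected at the 1-cell stage, 20 h after human chorionic gonadotropin (hCG), and both were lysed 10 h later as 2-cell embryos. Each group had 4 samples, each a pool of 5 embryos. No source used here gives the strain, the position of the guide's target or the form in which CasRX was injected. In such bulk samples, fewer cells with a transcript and less of it per cell cannot be told apart.

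Core histones H2A, H2B, H3 and H4 form the nucleosome, and the linker histone H1 binds the DNA where it enters and leaves it. Replication-dependent histone genes lie mostly in clusters, have no introns as a rule, and are read in S phase. Their mRNAs normally end, without a poly(A) tail, in a conserved stem-loop that the stem-loop binding protein SLBP holds. Variant histones such as H3.3 and H2A.Z come from genes with introns and polyadenylated mRNAs, and their synthesis is not tied to replication. In early mouse embryos H3.3 takes part in the remodelling of the paternal genome, and the oocyte linker histone H1f8 is a maternal product that somatic linker histones replace. The sources used here do not say whether poly(A) RNA was selected for these libraries.

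Library totals were 4726160 to 33650068 counts in the knockdown-labelled samples and 33311679 to 43748629 counts in the controls, and 3 of the 4 knockdown-labelled libraries held at most 8627402 counts. A count of 0, which allows up to 3 counts, corresponds to at most 0.345 to 0.593 CPM (counts per 1000000, scaled by TMM) in those 3 shallow libraries and to at most 0.0684 to 0.0941 CPM in the other 5. Polq, the gene the guide was directed at, had 16.8, 38.7, 29.1 and 40.9 CPM under the knockdown label, against 34.5, 49.5, 40.0 and 32.6 CPM in controls, and the groups overlapped. Its log2 fold change was -0.32 (SE 0.34, edgeR quasi-likelihood test, adjusted p = 1), and a 2-sided exact permutation test gave p = 0.343, where the smallest of 70 assignments can give 0.0286. Polq RNA does not separate the groups, so the comparisons below are between libraries by their labels. Oocyte markers summed to 3757 to 5984 CPM and 3468 to 6111 CPM in knockdown-labelled and control libraries. Most of this was Oosp1, at 3429 to 5316 CPM and 3024 to 5350 CPM. The other oocyte markers averaged 2.16 (Zp1) to 188 CPM (Bmp15) over all libraries. The 2-cell markers summed to 1016 to 1990 CPM and 900.4 to 2116 CPM in knockdown-labelled and control libraries. Among them Gm8300 averaged 570 CPM, Tcstv3 281 CPM and Zscan4c 41.7 CPM over all libraries. Of 12 cumulus and granulosa cell markers 7 were at 0 in all 8 libraries, among them Fshr, Foxl2 and Has2, and of 8 sperm markers 6 were at 0. The first list summed to 45.0 to 74.2 CPM and 39.2 to 59.7 CPM in knockdown-labelled and control libraries, mostly Nr5a2, which embryos also express. Of its other members Amhr2 was read in all 8 libraries, at 1.78 to 7.37 CPM and 0.910 to 7.45 CPM, Tnfaip6 reached 10.6 and 16.2 CPM and Cyp19a1 3.11 and 5.21 CPM in knockdown-labelled and control libraries, and their part in the results was not tested. The second list summed to 0 to 7.31 CPM and 0 to 7.28 CPM.

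Sequences of the 3′ stem-loop are shown first, because this structure marks the mRNA ends of replication-dependent genes. A search of the GENCODE M21 transcripts for the 16 letters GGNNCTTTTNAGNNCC on their own strand found them in 40 of 63 replication-dependent core genes, 4 of 10 linker genes and 2 of 32 variant genes, against 124 of 141767 annotated transcripts in all. The capitals mark the stem arms and the lower case letters the loop, each read from the annotated transcript, 5′ to 3′.
H4 genes H4c3 and H4c4: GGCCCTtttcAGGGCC
H4 gene H4c9: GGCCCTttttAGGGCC
H4 gene H4c2: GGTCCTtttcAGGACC
H1f2, H2bc11 and H3c1: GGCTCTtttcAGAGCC
H3c7 and H2bc12: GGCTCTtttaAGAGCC
H2ac20: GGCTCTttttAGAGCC
variant gene H2ax: GGCCCTtttaAGGGCC
The first of these was found in 7 genes, all of them H4, and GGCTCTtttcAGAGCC in 27 genes of H1, H2A, H2B and H3 type. H2ax, whose product H2A.X is phosphorylated at DNA breaks, was the one H2A gene whose arms read as those of most H4 genes. The stem-loop of H4c3 is at chr13:23698089-23698104 on the minus strand and that of H4c4 at chr13:23581950-23581965 on the plus strand (GRCm38). Of the 23 replication-dependent core genes without the letters, 15 have annotated transcripts whose lengths are multiples of 3, as models of the coding part alone would. Length alone does not show that a model is of this kind. Where a model is, absence of the letters says nothing of the mRNA. The others, such as H4c1 (539 bases) and H3c8 (530 bases), have other lengths, and their annotated transcripts held no match.

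Counts of histone genes in these libraries were almost wholly counts of variant genes. Histone genes took 0.716, 0.779, 0.681 and 0.720% of all counts in knockdown-labelled replicates 1 to 4, against 0.595, 0.619, 0.647 and 0.718% in control replicates 1 to 4. The ranges touch, since control replicate 4 lies within the knockdown-labelled values. Just 4 genes, H3f3b and H3f3a for H3.3 and H2az1 and H2az2 for H2A.Z, made up 94.0 ± 1.4% of the histone counts in knockdown-labelled libraries and 92.8 ± 0.988% in controls (SD, n = 4 each). The share of the 63 replication-dependent core genes was 2.89 ± 0.863% and 3.92 ± 1.18%, and that of the 10 linker genes 1.40 ± 0.437% and 1.83 ± 0.163%, in knockdown-labelled and control libraries. All 3 shares overlapped between the groups. How much RNA without a poly(A) tail the libraries captured was not measured, and shares between the classes depend on it.

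Levels of different genes were compared per kilobase of annotated exon (RPKM, mean over the 8 libraries), which depends on the annotated lengths. H3f3b stood first with 1308 RPKM, followed by H2az1 with 812, H2az2 with 241 and H3f3a with 190 RPKM. H3f3b was above H2az1 within every library, whereas H2az2 (192 to 307 RPKM) and H3f3a (162 to 243 RPKM) overlapped. The most abundant replication-dependent gene, H4c3, came next with 69.7 RPKM, and its highest library, at 142 RPKM, was below the lowest H3f3a library. From there the order is not separated by the spread between libraries: H2aj had 51.2, H1f8 46.7, H1f1 39.1, H4c4 37.9, H2ac1 36.6 and H2bc18 34.7 RPKM. Summed by protein, the RPKM of the 2 H3.3 genes was 96.3 ± 15.8 times that of the 12 replication-dependent H3 genes in knockdown-labelled libraries and 72.8 ± 19.6 times in controls. For the 2 H2A.Z genes against the 20 replication-dependent H2A genes this ratio was 24.0 ± 6.81 and 18.7 ± 9.54. The 8 libraries ranged from 49.9 to 105.0 for the first ratio and from 8.06 to 33.7 for the second, with overlap between the groups in both. Both ratios also depend on how much RNA without a poly(A) tail was captured. That was not measured, so they are ratios of reads and not of mRNA in the embryo.

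Between the groups, no histone gene passed the test. Of the 105 genes, 37 passed the filter on low counts (5 linker, 25 replication-dependent core and 7 variant), and none of the 37 had an adjusted p under 0.05 in edgeR's quasi-likelihood test, as none did of all 13146 genes tested (0%). At an unadjusted p under 0.05 there were also 0 of 37, in a background of 1.1% higher and 1.71% lower, or 2.81% in all, among the genes tested. DESeq2, which called 20 of 13002 genes (0.154%), called 0 of the histone genes. Limma-voom also called 0, with 0.747 as the smallest adjusted p; at an unadjusted p under 0.05 it listed 2 of 37, H1f5 (positive) and H3c8 (negative), in a background of 6.56%. The 4 libraries of a group lay apart from the 4 of the other in 2 of the 37, H3c8 and Hist1h2bp, both lower in knockdown-labelled libraries, and in 0 of 37 that were higher. Among all genes tested this was so for 1.54% (lower) and 1.44% (higher). With few libraries and a common biological coefficient of variation of 0.987, a missed threshold does not show that levels were alike.

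By class, the summed level of the variant genes was 6875 ± 810 CPM in knockdown-labelled libraries and 6138 ± 329 CPM in controls, a ratio of 1.12. The replication-dependent core genes summed to 206 ± 57.5 and 256 ± 83.7 CPM, a ratio of 0.804, where control replicate 2 held 378 CPM and the other controls 187 to 230 CPM. The linker genes summed to 99.8 ± 29.0 and 119 ± 13.8 CPM, a ratio of 0.839. All of these sums overlapped between the groups. The median log2 fold change was 0.15 for the 7 variant genes tested (5 positive, 2 negative), -0.37 for the 5 linker genes (1 positive, 4 negative) and -0.18 for the 25 core genes (10 positive, 15 negative), beside -0.05 over all genes tested, of which 53.4% were negative. The core median was 0.37 without control replicate 2, the linker median -0.23 without knockdown-labelled replicate 4, and the variant median was -0.16 when knockdown-labelled replicate 4, the deep one, stood alone against the controls. Sums of reads by type, fitted as single features in the table of all genes, gave log2 fold changes of 0.03 for the 6 cluster H1 genes, -0.43 for H2A, -0.11 for H2B, -0.13 for H3 and -0.39 for H4, each with an adjusted p of 1 in edgeR.

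**Figure D1:**
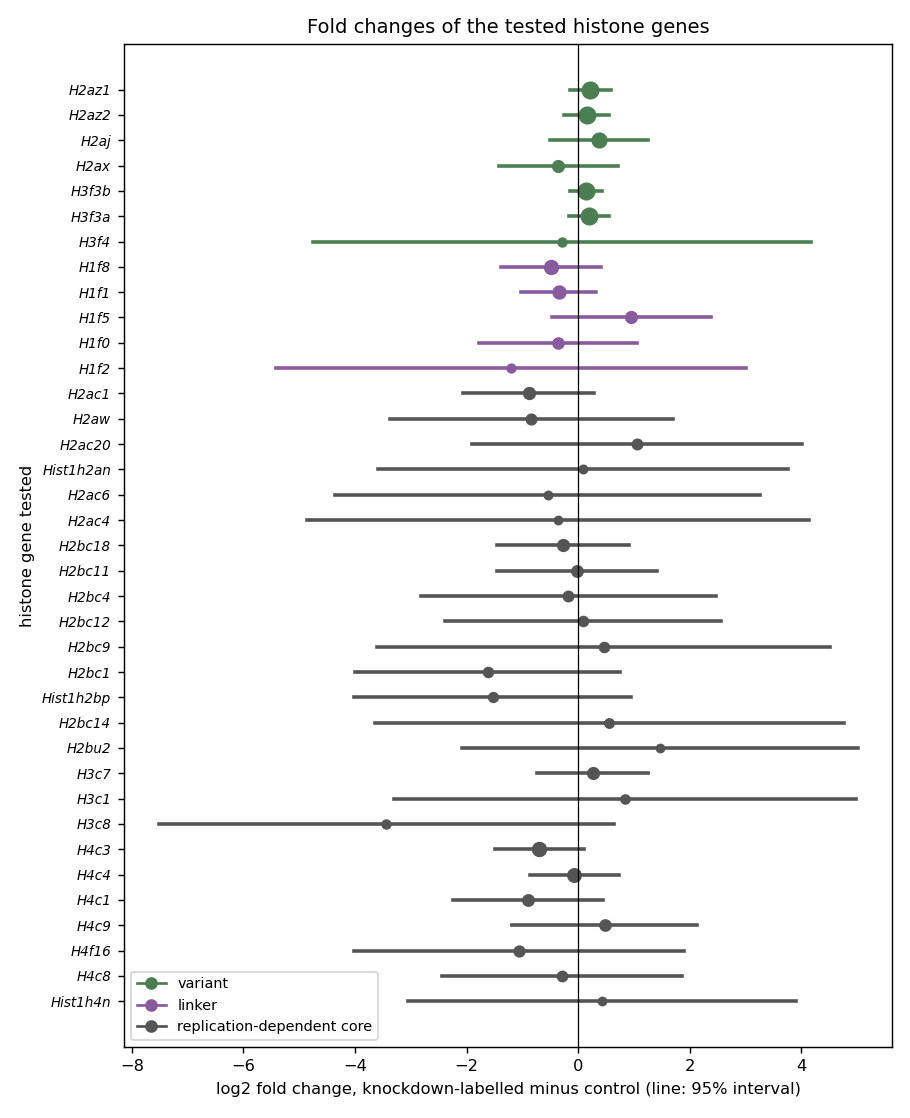
Log2 fold changes (x axis, knockdown-labelled minus control) of the 37 tested histone genes, grouped by class, with 95% intervals as lines and larger points for higher mean CPM. All intervals include 0, and those of H3f3b, H2az1, H3f3a and H2az2 are the narrowest.

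The fold changes of the H3.3 and H2A.Z genes had the smallest standard errors of the 37 histone genes tested, 0.13 to 0.18 on the log2 scale. H3f3b (chr11:116021912-116027962, minus strand), which encodes H3.3, had 4009, 4475, 3423 and 4403 CPM in knockdown-labelled replicates 1 to 4 and 3359, 4075, 3544 and 3862 CPM in control replicates 1 to 4. Knockdown-labelled replicates 2 and 4 were above every control, and replicates 1 and 3 lay among them. The log2 fold change was 0.14 (SE 0.13, edgeR adjusted p = 1), with a 95% interval on the fold of 0.903 to 1.34. H3f3a (chr1:180800832-180813943, minus strand) encodes the same protein and had 569, 850, 649 and 782 CPM in knockdown-labelled libraries and 635, 568, 698 and 585 CPM in controls, with replicates 2 and 4 of the knockdown-labelled group above every control and replicate 1 near the lowest. Per length, H3f3b exceeded H3f3a by 6.83 ± 0.994 times in knockdown-labelled libraries and 7.11 ± 1.19 times in controls.

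H2az1 (chr3:137864487-137866922), the main H2A.Z gene, had 1268, 2006, 1564 and 1364 CPM in knockdown-labelled libraries and 1216, 1252, 1419 and 1452 CPM in controls. Knockdown-labelled replicates 2 and 3 were above all controls and the other two were among them. Its log2 fold change was 0.22 (SE 0.16), and the 95% interval on the fold ran over 0.902 to 1.50 (edgeR adjusted p = 1). H2az2 (chr11:6427229-6444443), the other H2A.Z gene, had 344, 462, 350 and 502 CPM and 401, 313, 364 and 415 CPM in knockdown-labelled and control libraries, with knockdown-labelled replicates 2 and 4 above every control and replicates 1 and 3 among them. All 4 genes thus had positive fold changes whose intervals included no change. In controls their median coefficient of variation was 9.11%, against 21.9% over the 1300 genes above 100 CPM, and in knockdown-labelled libraries it was 18.5% against 21.1%. These genes are not matched by level, since that range has no upper limit. Variation fell with level, from 83.9% at 1 to 10 CPM to 40.7% at 10 to 100 CPM over all tested genes in controls.

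**Figure D2:**
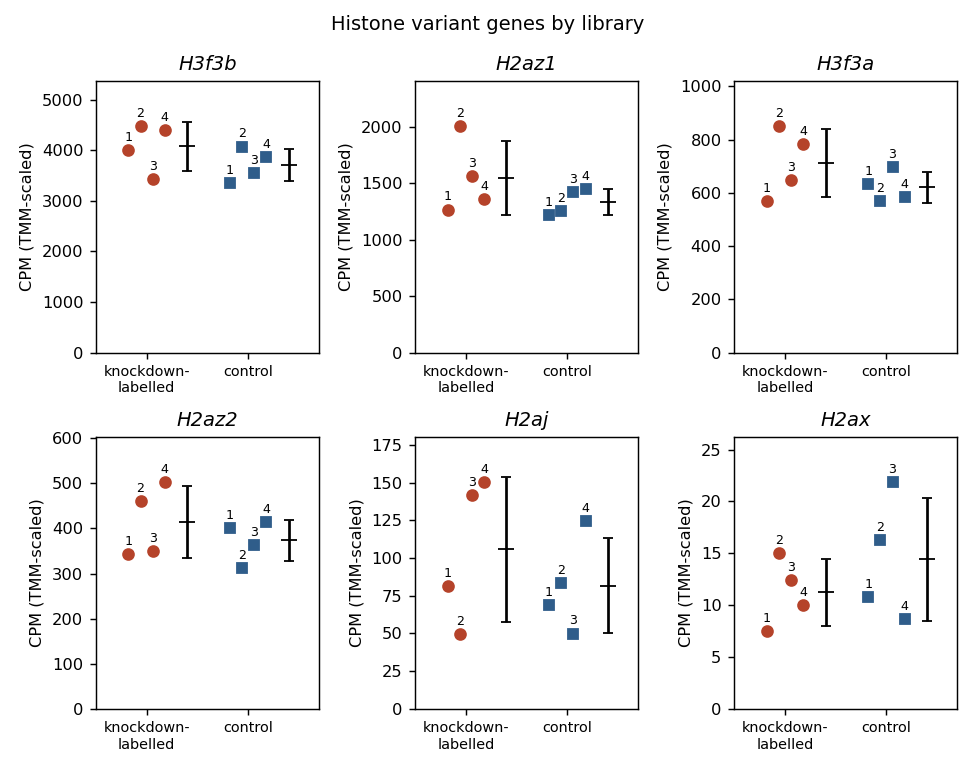
Levels (TMM-scaled CPM, y axes from 0) of 6 histone variant genes in each knockdown-labelled (circles, left) and control (squares, right) library, numbered by replicate, with mean and SD (n = 4) as bars. In every panel the groups overlap, and H3f3b lies highest, at 3359 to 4475 CPM.

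H2aj, a replication-independent H2A gene, had 81.6, 49.5, 142 and 150 CPM in knockdown-labelled libraries and 68.5, 83.6, 49.9 and 124 CPM in controls, a wide and overlapping spread. H2ax averaged 11.2 ± 3.22 CPM in knockdown-labelled libraries and 14.4 ± 5.89 CPM in controls. For both of these genes the table holds fractional counts, in 6 libraries for H2aj and 2 for H2ax, which means that reads were divided between genes by estimation, and an annotated gene overlaps each on the opposite strand. H3f4 and H3f3c, variant H3 genes by symbol, were low. They had 1.25 ± 1.77 and 0.417 ± 0.352 CPM in knockdown-labelled libraries and 1.51 ± 1.02 and 0.322 ± 0.343 CPM in controls. GENCODE M21 annotates both as pseudogenes, and RefSeq annotates both as protein-coding. Of the 32 variant genes 20 had no count in any library, among them H2ab1, H2ab2 and H2ab3 and most of the H2al genes, which are known from the male germ line. H3f3aos, which runs antisense to H3f3a, had 6.32, 5.81, 0.23 and 4.21 CPM in knockdown-labelled libraries and 0.304, 3.33, 0.592 and 2.99 CPM in controls. The sources used here give no strand setting for the counting, so reads of H3f3aos and H3f3a cannot be told apart where they overlap.

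Linker histone RNA came mainly from the oocyte gene and from 1 cluster gene. H1f8 (chr6:115944938-115950236; formerly H1foo), the oocyte linker histone, had 79.6, 34.5, 20.1 and 53.0 CPM in knockdown-labelled libraries and 62.9, 44.7, 70.3 and 84.0 CPM in controls. Knockdown-labelled replicates 2 and 3 were below every control, while replicate 1 was exceeded by control replicate 4 alone. The log2 fold change was -0.49 (SE 0.40, edgeR adjusted p = 1). H1f1 (chr13:23763666-23764406), a cluster linker gene, had 30.0, 30.9, 22.8 and 18.2 CPM in knockdown-labelled libraries and 38.2, 33.7, 26.0 and 32.0 CPM in controls, a log2 fold change of -0.35 (SE 0.31). H1f8 and H1f1 together made up 71.3 ± 9.30% of linker CPM in knockdown-labelled libraries and 82.4 ± 10.2% in controls.

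H1f5 (chr13:21779883-21780625, minus strand) was the histone gene with the smallest p among those with a positive fold change. It had 12.6, 12.3, 12.2 and 32.7 CPM in knockdown-labelled libraries and 2.74, 16.1, 11.6 and 5.79 CPM in controls. Knockdown-labelled replicate 4 stood far above the rest, and the other 3 lay within the control range. The log2 fold change was 0.95 (SE 0.64, unadjusted p = 0.166, adjusted p = 1 in edgeR) and 0.45 without knockdown-labelled replicate 4. H1f0, the linker histone of differentiated cells, averaged 7.64 ± 2.28 CPM in knockdown-labelled libraries and 9.84 ± 5.35 CPM in controls. H1f2 averaged 0.717 ± 0.632 and 1.68 ± 1.94 CPM, and H1f10 0.842 ± 1.55 and 0.131 ± 0.193 CPM. The testis genes H1f6 and H1f7 were at 0 in all 8 libraries.

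Among the replication-dependent types H4 had the highest summed level per length, 136 ± 49.1 RPKM in knockdown-labelled libraries and 177 ± 55.7 RPKM in controls. It came mainly from H4c3 and H4c4. H4c3 (chr13:23697635-23698454, minus strand) had 63.6, 35.0, 34.9 and 41.0 CPM in knockdown-labelled libraries and 45.2, 116, 70.9 and 49.9 CPM in controls. Knockdown-labelled replicates 2 to 4 were below every control, and replicate 1 was above control replicates 1 and 4. Its log2 fold change of -0.70 (SE 0.36) had the smallest p of the 37 genes, 0.0793 unadjusted and 1 adjusted in edgeR, and a 95% interval on the fold of 0.355 to 1.07. Without control replicate 2 the log2 fold change was -0.34. H4c4 (chr13:23581598-23582735), which carries the same stem-loop letters as H4c3, had 43.9, 35.2, 23.2 and 65.8 CPM in knockdown-labelled libraries and 60.9, 46.1, 35.5 and 34.0 CPM in controls, with a log2 fold change of -0.07 (SE 0.36). That value was 0.02 without knockdown-labelled replicate 2, 0.13 without replicate 3 and 0.14 without control replicate 1. H4c1 (chr13:23760692-23761230, minus strand) had 11.8, 2.30, 5.98 and 8.77 CPM in knockdown-labelled libraries and 12.1, 20.4, 10.8 and 10.8 CPM in controls, where knockdown-labelled replicate 1 overlapped the controls. The log2 fold change of H4c1 was -0.90 (SE 0.60).

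The germ-line gene H2ac1 led the replication-dependent H2A genes by mean CPM, though H2ac20 was above it in knockdown-labelled replicate 3. By symbol it belongs to the clusters, although its protein and that of its neighbour H2bc1 are known as germ-line forms found in testis, oocytes and early embryos. H2ac1 (chr13:23934462-23934851; formerly Hist1h2aa), which encodes TH2A, had 12.1, 8.83, 6.21 and 13.0 CPM in knockdown-labelled libraries and 18.8, 33.4, 7.70 and 14.4 CPM in controls. Its highest knockdown-labelled library lay between control replicates 3 and 4, and control replicate 2 was far the highest. H2ac1 held 41.0 ± 12.4% of replication-dependent H2A CPM in knockdown-labelled libraries and 57.4 ± 12.7% in controls, and its log2 fold change was -0.89 (SE 0.53, edgeR adjusted p = 1), or -0.44 without control replicate 2. H2bc1 (chr13:23933773-23934156, minus strand; formerly Hist1h2ba), its TH2B neighbour, had 3.36, 0.242, 2.42 and 1.65 CPM in knockdown-labelled libraries and 2.77, 8.25, 9.57 and 3.01 CPM in controls. Knockdown-labelled replicate 1 overlapped the 2 lower controls, and the log2 fold change was -1.63 (SE 1.06). H2aw averaged 4.41 ± 2.72 CPM in knockdown-labelled libraries and 7.93 ± 12.4 CPM in controls, where control replicate 2 alone held 26.5 CPM. Its log2 fold change was -0.84, and 1.36 without that library. H2ac20 had 3.16, 6.41, 10.9 and 8.90 CPM in knockdown-labelled libraries and 5.21, 0, 7.02 and 1.92 CPM in controls. H2aw and H2ac20 held fractional counts in 7 and 5 libraries, and both, like H2ac1, H2bc18, H1f0 and H3f3a, overlap an annotated gene on the opposite strand. On their own strand, H2aw also overlaps Trim17 and H2bc18 overlaps Gm42743.

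No single gene dominated the H2B type, in which the highest, H2bc18, held 24.7 ± 3.96% and 28.4 ± 8.46% of a sum of 48.1 ± 19.9 CPM in knockdown-labelled libraries and 51.7 ± 20.0 CPM in controls. H2bc18 (chr3:96269752-96270132) had 20.9, 10.0, 6.79 and 10.1 CPM in knockdown-labelled libraries and 19.3, 15.8, 16.4 and 6.42 CPM in controls. Its counts were fractional in all 8 libraries, so its reads are shared with another gene. H2bc11 averaged 10.4 ± 3.29 and 10.6 ± 8.15 CPM, a log2 fold change of -0.02 (SE 0.64) that was 0.63 without control replicate 2, 0.11 without knockdown-labelled replicate 3 and 0.08 without replicate 4. H2bc4 averaged 5.02 ± 5.60 and 5.71 ± 4.27 CPM in knockdown-labelled and control libraries. Hist1h2bp, 1 of the 2 genes whose groups lay apart, had 1.78, 2.30, 2.42 and 0.156 CPM in knockdown-labelled libraries and 7.76, 2.64, 4.65 and 4.10 CPM in controls, with a log2 fold change of -1.53 (SE 1.12, edgeR unadjusted p = 0.2). The gap between its groups, 2.42 against 2.64 CPM, was small beside the spread within them.

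Replication-dependent H3 had the lowest summed level per length, 16.9 ± 4.95 RPKM in knockdown-labelled libraries and 20.6 ± 5.58 RPKM in controls. H3c7 (chr13:23544052-23545312), an H3.2 gene, had 12.1, 13.2, 13.7 and 16.2 CPM in knockdown-labelled libraries and 6.46, 11.6, 13.0 and 15.0 CPM in controls. It made up 78.4 ± 9.80% of H3 CPM in knockdown-labelled libraries and 60.5 ± 13.0% in controls, and the groups overlapped in level and in share. H3c8 (chr13:23535422-23535951), an H3.1 gene, had 0, 8, 0 and 0 counts in knockdown-labelled libraries, or 0.968 CPM in replicate 2, and 137, 70, 58 and 123 counts in controls, or 4.17, 2.20, 1.32 and 2.85 CPM. Its groups lay apart, and the fitted log2 fold change was -3.44 (SE 1.83, unadjusted p = 0.0898, adjusted p = 1 in edgeR). With so few counts this value depends on the fit: it was -2.98 to -9.22 with 1 library left out, the last without knockdown-labelled replicate 2, -4.67 in limma-voom and -6.28 with a replicate block in edgeR (unadjusted p = 0.0465). At 0 counts the limit was 0.593 CPM in replicate 1, 0.345 CPM in replicate 3 and 0.0936 CPM in replicate 4. Each of these limits is below the lowest control value. H3c1, also H3.1, had 1.98, 5.33, 0 and 1.72 CPM in knockdown-labelled libraries and 0, 0.126, 3.67 and 1.23 CPM in controls, a spread with no common order. Summed per length, the 4 H3.1 genes had 5.12 ± 5.87 RPKM and 7.77 ± 2.40 RPKM in knockdown-labelled and control libraries, and the 8 H3.2 genes 11.8 ± 1.27 and 12.9 ± 4.75 RPKM.

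**Figure D3:**
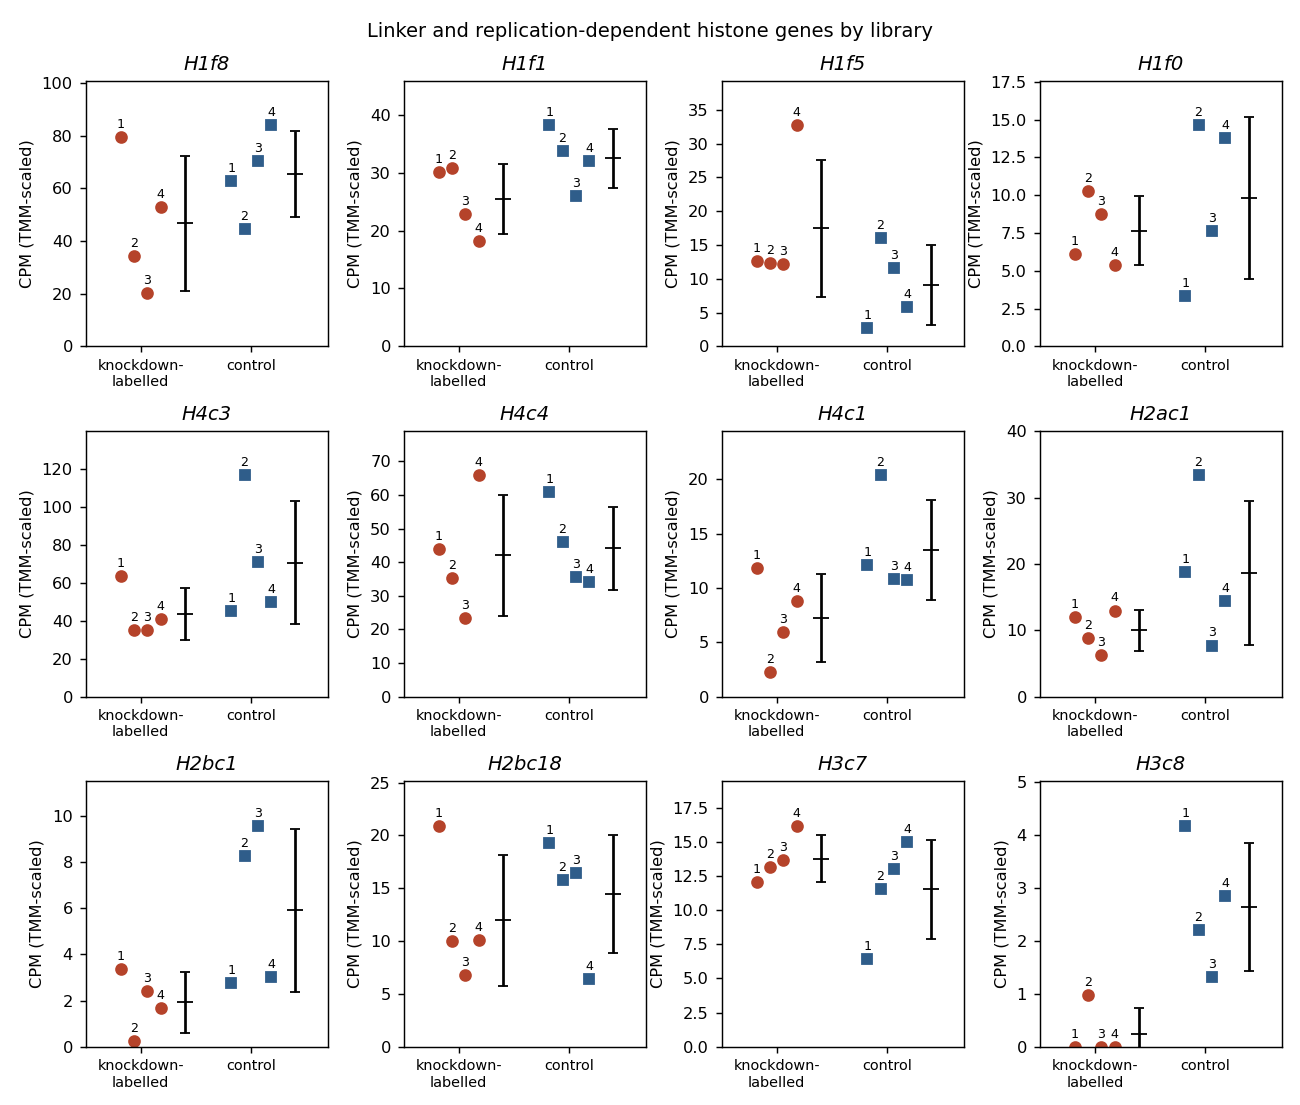
Levels (TMM-scaled CPM, y axes from 0) of 12 linker and replication-dependent histone genes in knockdown-labelled (circles, left) and control (squares, right) libraries, numbered by replicate, with mean and SD (n = 4) as bars, cut at 0. The groups overlap in every panel but that of H3c8, where 3 of 4 knockdown-labelled libraries are at 0.

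Many replication-dependent genes were read in some pools of embryos and not in others. Of the 63 genes 14 had a count in all 8 libraries, 43 in 1 to 7 and 6 in none, while of the 32 variant genes 6 were in all 8 and 20 in none. In 22 histone genes (17 core, 2 linker and 3 variant) a library with no count stood beside another with at least 50. H2bc3 had 78 counts in control replicate 4 and 0 in the other 7 libraries. H2bc21 had 96 counts in knockdown-labelled replicate 2, 1 in replicate 1 and 0 in the other 6, although replicate 2 was a shallow library. H3c14 had 226 counts in control replicate 3 and 0 in control replicates 1 and 4. H2ac20 had 308 counts in control replicate 3 and 0 in control replicate 2. These genes lay in both groups, and H3c4 and H3c3, with 106 and 89 counts in control replicate 3, were at 0 in all 4 knockdown-labelled libraries and also in control replicate 1. Each knockdown-labelled library detected 42 to 51 of the 105 genes and each control library 47 to 53, or 40 to 42 and 38 to 41 after all libraries were thinned to 4726160 counts. Detection in some libraries and not in others was not counted over all genes, so these counts do not mark a trait particular to histone genes. Between 1 and 10 CPM the median coefficient of variation of tested histone genes in controls was 75.4% over 16 genes. Over the 6182 tested genes of like level it was 83.9%. Genes that did not pass the filter on low counts are outside this comparison.

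**Figure D4:**
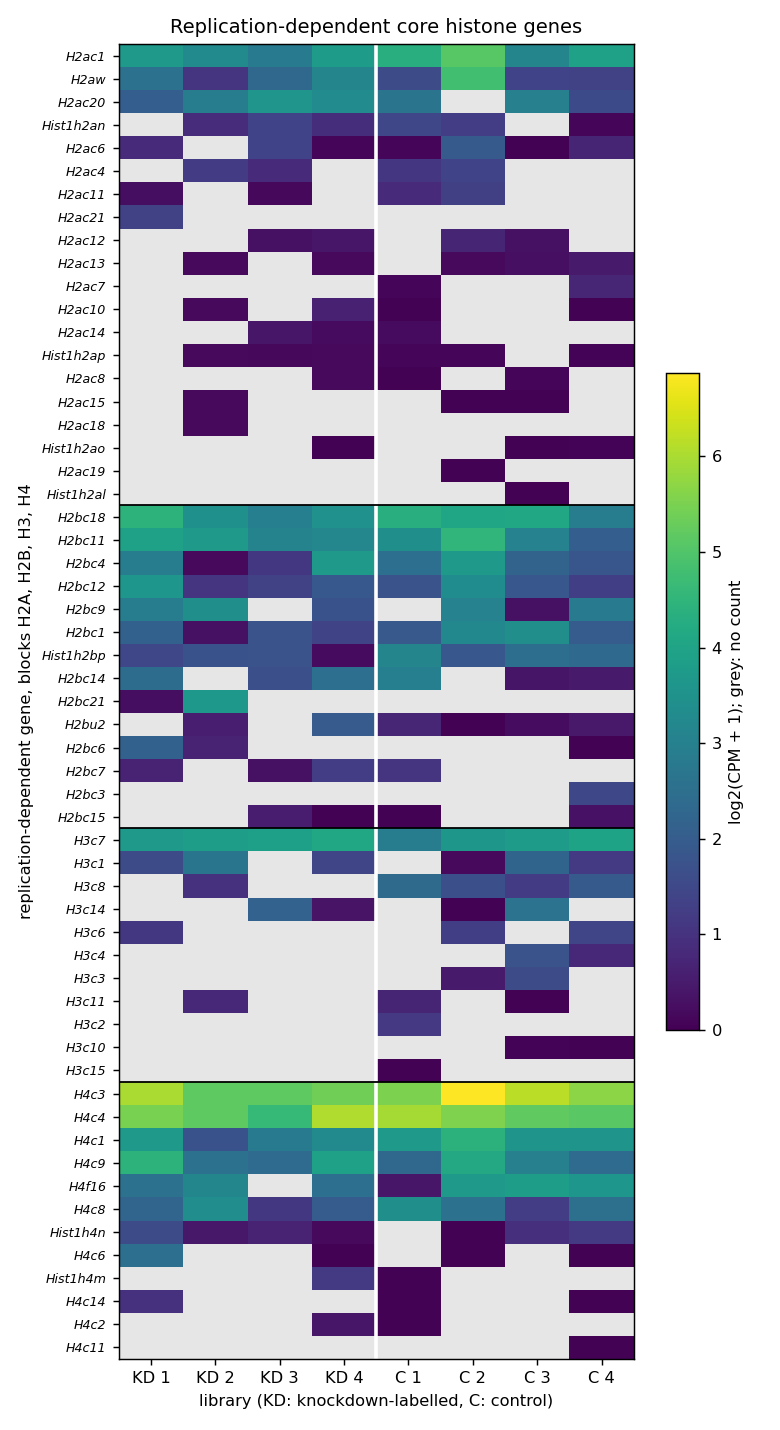
Levels as log2(CPM + 1) of the 57 replication-dependent core histone genes with a count (rows, in blocks H2A, H2B, H3 and H4 from the top) in the 8 libraries (columns, knockdown-labelled to the left of the white line, controls to its right), with grey for no count. A few genes, such as H4c3, H4c4, H2ac1, H2bc11 and H3c7, are read in every library, and most of the others are grey in some.

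Neighbouring H2A and H2B genes that start head to head often differed in level. Within 1000 bases of each other lay 13 such pairs. The H2B gene was the higher of the pair per length in 7 and the H2A gene in 6, and in 6 pairs both genes were under 1 RPKM. Of the 7 pairs with a gene above 1 RPKM the H2B gene was higher in 5 and the H2A gene in 2, and in 4 of the other pairs the H2B gene had no count and the H2A gene 0.026 to 0.316 RPKM. H2bc11 had 22.7 RPKM (mean of 8 libraries) against 0.657 RPKM for H2ac11, whose start is 270 bases away, and was higher in 8 of 8 libraries. The H2B gene was also higher in 8 of 8 libraries in the pairs H2bc12 and H2ac12 (8.45 and 0.441 RPKM) and H2bc4 and H2ac6 (4.64 and 0.304 RPKM). The opposite was seen for H2ac20, with 10.5 RPKM against 0.564 RPKM for H2bc21, and for H2ac1, with 36.6 RPKM against 10.2 RPKM for H2bc1. H2ac1 was above H2bc1 in 7 of 8 libraries, all but control replicate 3. The annotated exonic length of a gene enters each RPKM, and it differs greatly within some pairs, with 2482 bases for H2ac6 and 1156 for H2bc4.

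**Figure D5:**
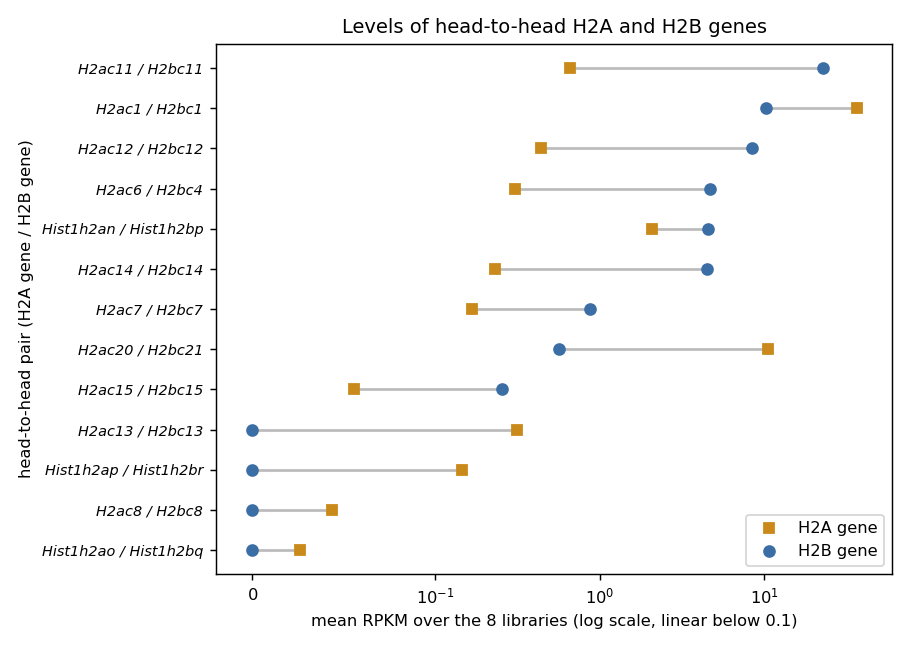
Mean RPKM over the 8 libraries (x axis, logarithmic, linear below 0.1) of the H2A gene (squares) and the H2B gene (circles) of 13 head-to-head pairs. The H2B gene lies to the right in 7 pairs and the H2A gene in 6.

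The promoter between H2ac1 and H2bc1 is shown because the RefSeq starts of these genes lie 281 bases apart and their promoter windows overlap by 220 bases. The sequence at the RefSeq start of H2bc1 begins with the letters ATG, so the distance may not be that between starts of transcription. The window is that of H2ac1, from 250 bases before to 50 after its RefSeq start (GRCm38.p6, chr13:23934187-23934486, plus strand), with matches on either strand to the TATA box letters TATAAA, to the pentamer CCAAT and to the octamer ATTTGCAT in capitals.
H2ac1: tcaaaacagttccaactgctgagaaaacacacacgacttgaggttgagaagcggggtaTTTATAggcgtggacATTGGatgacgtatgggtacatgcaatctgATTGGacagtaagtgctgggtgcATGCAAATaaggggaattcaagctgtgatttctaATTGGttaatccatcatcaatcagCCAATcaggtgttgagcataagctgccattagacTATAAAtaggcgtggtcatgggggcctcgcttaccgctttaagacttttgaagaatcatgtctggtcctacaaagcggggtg
On the strand of H2ac1, TATAAA begins 32 bases before the start. On the opposite strand, which is that of H2bc1, the window holds TATAAA, 3 matches to CCAAT and ATTTGCAT, and a further CCAAT lies on the H2ac1 strand. The TATAAA of the H2bc1 strand begins 94 bases before the RefSeq start of H2bc1. Of the 57 RefSeq promoters of replication-dependent core genes 54.4% held TATAAA, 84.2% CCAAT and 24.6% ATTTGCAT, against 13.6%, 37.4% and 1.74% of all 32851 promoters of that length. Among the 31 promoters of variant genes the shares were 12.9%, 38.7% and 3.23%. A match is a stretch of letters and no measured binding. H2ac1 and H2bc1 both had negative fold changes, -0.89 and -1.63, neither past the test.

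The stem-loop was also compared with the annotated ends, since several abundant genes have annotated transcripts that run on past it. The 18 core genes with at least 100 annotated bases past the loop, such as H4c3 with 454, H4c4 with 770 and H3c7 with 365, summed to 128 CPM in knockdown-labelled libraries and 159 CPM in controls. The 22 genes with less summed to 36.6 and 34.9 CPM, led per length by H2bc11 with 23 bases past the loop. The 23 genes without the letters summed to 41.4 and 62.3 CPM in knockdown-labelled and control libraries. A gene table does not show where in a transcript the reads lie, and long models gather more reads by their length alone.

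Genes that make or handle histone mRNA and histones were measured beside them. Of 22 genes of histone mRNA transcription, 3′ processing and decay, 19 were tested and 0 passed edgeR's threshold, with a median log2 fold change of -0.04 (8 positive, 11 negative). Slbp, whose product binds the stem-loop, averaged 408 ± 52.6 CPM in knockdown-labelled libraries and 420.3 ± 40.3 CPM in controls. Ccne2, cyclin E2, had 55.9, 62.4, 71.2 and 63.7 CPM in knockdown-labelled libraries and 56.3, 117, 116 and 88.4 CPM in controls, where control replicate 1 lay among the knockdown-labelled values. Eri1, an exonuclease that trims histone mRNA 3′ ends, had 1.19, 0, 3.34 and 1.22 CPM in knockdown-labelled libraries and 4.45, 7.94, 7.45 and 7.46 CPM in controls. Its groups did not overlap, and its log2 fold change was -2.25 (SE 1.24, edgeR unadjusted p = 0.1, adjusted p = 1). Ncbp1, a subunit of the nuclear cap-binding complex, lay barely apart the other way, with 45.8, 66.3, 53.9 and 46.4 CPM in knockdown-labelled libraries and 25.6, 45.3, 38.8 and 44.4 CPM in controls. The gap was 45.8 against 45.3 CPM, and the log2 fold change of Ncbp1 was 0.46 (SE 0.27, edgeR unadjusted p = 0.122, adjusted p = 1). Among all genes tested the groups lay apart in 1.54% (lower) and 1.44% (higher).

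Of 27 histone chaperones and variant loaders, all tested, 0 passed, with a median of 0.01 (14 positive, 13 negative). Nasp, a chaperone of H3 and H4 and of linker histones, had 304, 336, 334 and 357 CPM in knockdown-labelled libraries and 234, 299, 283 and 264 CPM in controls, a narrow separation of the groups. The log2 fold change of Nasp was 0.30 (SE 0.15, edgeR unadjusted p = 0.0683, adjusted p = 1). Groups apart in this direction were found for 1.44% of all genes tested. Asf1a, a chaperone of H3 and H4, averaged 52.7 and 74.0 CPM with overlap. None of 18 S-phase genes passed edgeR's threshold, and their median log2 fold change was 0.16 (11 positive, 7 negative). Among histones outside the symbol rule, the centromeric H3 variant Cenpa had 158 ± 64.0 CPM in knockdown-labelled libraries and 129 ± 12.6 CPM in controls, and Hils1 and Macroh2a2 were at 0 in all libraries.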

How the data were processed

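Libraries of mouse 2-cell embryos, 4 per group, were prepared with a NEBNext Ultra RNA kit after TRIzol extraction, per the labels' protocols. The table the authors deposited holds unnormalised expected counts by gene. The submitters' processing notes name STAR 2.7.3a, RSEM 1.2.28, Trim Galore 0.6.10 and the build GRCm38 (mm10). Annotation release, strand setting, read length and duplicate removal: not given in the sources used here. Near-identical genes share reads that RSEM allots by estimation, so the levels of histone paralogs are uncertain; 13 members held fractional counts.

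Counts were rounded, which altered 4.22% of values. Genes were filtered with filterByExpr (minimum count 10, total 15), scaled by TMM and compared in edgeR 4.0.16 (R 4.3.3; quasi-likelihood, robust, group the only term), with Benjamini-Hochberg adjustment over 13146 genes and a threshold of 0.05. Fold changes are knockdown-labelled minus control, and ± gives the SD of 4 libraries. RPKM uses exonic lengths of GENCODE M21, to which all 106 rows were linked, 73 by older symbols; coordinates are from it, in GRCm38. Of the members, 97 have a RefSeq promoter (GRCm38.p6). H2aw, H2bu2 and H4f16 count as replication-dependent by their older symbols, and H2ac14 and Hist1h2al are annotated as pseudogenes in RefSeq. The procedure was tested on simulated data.

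Members and gene lists were chosen with earlier results of these data known. Named are fixed variants and linkers, the 3 most abundant genes of each replication-dependent type, and the 5 with the smallest p in each direction; of the other lists, the 2 with the smallest p in those on histones. Other genes were named after their values were seen. Of the list members, Symk and Zcchc6 were not found under these symbols. Lower depth goes with the knockdown label in 3 of 4 libraries, and its part in the results was not tested beyond thinning. The labels call samples biological replicates. Without molecular identifiers, limits for a count of 0 cover counting error only. Alternatives were other scalings, filters, DESeq2 1.42.0, limma-voom 3.58.1, a replicate block, thinning and leaving out libraries.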

Additional observations from a re-analysis of the deposited data

Results flagged for a closer look

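Within groups of 4, a sample far from the other 3 was looked for in the 25 named histone genes by Dixon's criterion (critical value 0.829). It was met in 5 of 50 groups. The nominal rate of 1 in 20 holds for normally distributed values, and several of these groups are low counts with zeros. Some of the genes were also named for their p in these data, so this count cannot be set against that rate. H1f5 had 32.7 CPM in knockdown-labelled replicate 4, the deep one, against 12.2 to 12.6 CPM in the other 3 of its group. H1f10 had 3.16 CPM in knockdown-labelled replicate 1, the shallowest, against 0 to 0.115 CPM. H3c8 had 0.968 CPM in knockdown-labelled replicate 2 and 0 in the other 3. Control replicate 2 was the high sample for H2aw, at 26.5 CPM against 1.53 to 2.04 CPM, and for H4c1, at 20.4 CPM against 10.8 to 12.1 CPM. That library also held the highest control values of H4c3 and H2ac1 and, summed, of the replication-dependent H2A, H2B and H4 genes, at 68.1, 77.1 and 217 CPM.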

How the results depend on the processing

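No histone gene was called under any of the 18 alternatives, but the summaries moved. The count of all genes called was 20 with DESeq2 and 0 in all fits that left out 1 library. The median log2 fold change of all histone genes tested, -0.18, was 0.041 with no filter, 0.00050 with a filter of 5 CPM in 4 libraries, 0.16 with limma-voom and -0.080 after thinning, and -0.31 to 0.16 when 1 library was left out (0.03 without knockdown-labelled replicate 3, 0.16 without control replicate 2). Same-numbered samples did not deviate together (correlations -0.221 to 0.0345, and 1 of 8 samples correlated best with its own number). With a replicate block it was 0.064, and the linker median -0.20; the block called 0 histone genes. With 1 library left out, the linker median was -0.50 to -0.23, the core median -0.34 to 0.37 and the variant median 0.10 to 0.26, and Polq -0.47 to -0.11. With knockdown-labelled replicates 1, 2 and 3 left out together, chosen after seeing the data and with the lone library assumed to vary like the controls, the medians were -0.51 (all), -0.53 (linker), -0.57 (core) and -0.16 (variant), and Polq was 0.073. Ratios of summed CPM with 1 library left out were 0.725 to 0.959 (core), 0.750 to 0.934 (linker) and 1.07 to 1.16 (variant), on the same side of 1 throughout. The core ratio came nearest to 1, at 0.959, without control replicate 2, where the core median was positive. Of 441 log2 fold changes of named genes under alternatives 416 kept their sign, and the 25 that did not were in H2bc11, H1f2, H2aw, H4c4, H2bc4, H3c1 and Polq; the cause was not tested. Depth limits the low genes most, in the 3 shallow libraries.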
